A study of Mus musculus with 2 samples.

Results

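Lymphoid specification genes are the factors and enzymes that carry a marrow progenitor into the B and T lineages. The 10 described here were chosen by name, and each symbol matched 1 of the 56748 rows of both count matrices: Ebf1, Pax5, Foxo1, Satb1, Tcf3, Notch1, Ikzf1, Dntt, Rag1 and Lax1. They were followed in lineage-negative (Lin-) bone marrow cells of C57BL/6 mice, 1 library from Nat10 cKO mice (a conditional knockout) and 1 from WT mice, by 10x sequencing of 3′ transcript ends, cell by cell. Nat10 is the RNA acetyltransferase that makes N4-acetylcytidine, and the series asks what its loss does to blood stem cells and their descendants. The series text names 5 mice, with no map from a cell to a mouse; the promoter that drove the deletion, the age of the mice and the time since deletion are not given in the sources used here. Lineage-marked cells had been removed with antibodies before sequencing.

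In the marrow, lymphoid fate is set in steps. Multipotent progenitors that are primed for lymphoid fate first carry Ikzf1, which encodes Ikaros, the E protein gene Tcf3 and the chromatin organiser Satb1, and begin to make Dntt, the template-independent DNA polymerase that adds bases at antigen receptor joints. Ebf1 and Foxo1 then switch on the B cell programme in common lymphoid progenitors, Pax5 holds the cells in it, and Rag1 cuts the receptor genes for recombination. Notch1 is the receptor that turns such progenitors toward the T lineage, and Lax1 is a membrane adaptor that dampens signals from antigen receptors.

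Each genotype had 1 library, so no difference between genotypes was tested, and every interval is a 95% interval for counting error only. A barcode was kept if it held 1000 or more unique molecular identifiers (UMIs, each standing for 1 captured transcript) and 500 or more genes, with mitochondrial UMIs no more than 10% of the total. Without called doublets this left 10692 cKO cells with 253970598 UMIs and 11943 WT cells with 262367650 UMIs. Medians were 21470 UMIs per cKO cell and 18272 per WT cell, and 67 cell barcodes occurred in both libraries, 53 of them kept in the cKO and 46 in the WT library. Levels are summed UMIs scaled to a total of 1000000 (CPM), and since tags come from the 3′ end they are set side by side between cells and never between genes. The log2 ratio is cKO over WT, and a gene is counted as lower or higher past 1.5-fold, a log2 ratio beyond 0.58 in size, if both libraries together hold at least 50 UMIs of it. Nat10 itself stood at 38.7 CPM in the cKO library and 47.03 CPM in the WT library over all kept cells, a log2 ratio of −0.28 (−0.32 to −0.24). The deleted stretch of Nat10 is unnamed in the labels, and 3′ tags from outside that stretch check nothing.

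Cell classes were rebuilt by clustering with the 10 genes left out of the clustering and of the marker lists, so none of the 10 helped to form the classes. Classes end in "-like" because they rest on marker transcripts. Lymphoid progenitor-like cells numbered 49 in the cKO and 143 in the WT library, cells like haematopoietic stem cells and multipotent progenitors (HSC/MPP-like) 165 and 390, and plasmacytoid dendritic-like cells 275 and 274. Pro-B/pre-B-like cells numbered 141 in the cKO library against 13 in the WT library. That cluster also held markers of mature B cells, 2 of them (Ms4a1 and Fcmr) among its 10 leading genes and 9 detected in all, beside 12 detected pro-B/pre-B markers. Lineage-marked cells had been removed with antibodies, and the part of that removal in the 141 and 13 cells was not tested. The lymphoid progenitor-like cluster had 1 marker of its own name (Mn1) and 1 plasmacytoid dendritic marker (Cox6a2) among its 10 leading genes.

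Promoter sequence is shown for the 5 genes that were lower past 1.5-fold together in HSC/MPP-like cells of the cKO library, the result described at most length below. Each line gives the 250 bases just before a RefSeq transcription start on the gene's strand, in build GRCm38.p6, which is older than the build the counts were made on. Where RefSeq lists several starts the first one is shown. Capitals mark E boxes, spelled CANNTG, the letters that E proteins such as the products of Tcf3 recognise. The Dntt promoter lies at chr19:41029025-41029274 on the plus strand, that of Lax1 at chr1:133690109-133690358 on the minus strand, that of Foxo1 at chr3:52268087-52268336 on the plus strand, that of Satb1 at chr17:51833291-51833540 on the minus strand and that of Notch1 at chr2:26503823-26504072 on the minus strand.
Dntt: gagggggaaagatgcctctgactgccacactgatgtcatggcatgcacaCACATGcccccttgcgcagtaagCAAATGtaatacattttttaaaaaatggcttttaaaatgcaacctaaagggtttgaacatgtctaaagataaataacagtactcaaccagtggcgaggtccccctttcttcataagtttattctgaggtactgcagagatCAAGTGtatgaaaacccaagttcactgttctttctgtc
Lax1: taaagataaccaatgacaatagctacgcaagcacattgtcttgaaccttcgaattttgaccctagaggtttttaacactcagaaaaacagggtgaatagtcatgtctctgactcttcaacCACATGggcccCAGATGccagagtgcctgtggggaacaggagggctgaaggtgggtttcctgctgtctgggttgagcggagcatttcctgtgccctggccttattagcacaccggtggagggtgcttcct
Foxo1: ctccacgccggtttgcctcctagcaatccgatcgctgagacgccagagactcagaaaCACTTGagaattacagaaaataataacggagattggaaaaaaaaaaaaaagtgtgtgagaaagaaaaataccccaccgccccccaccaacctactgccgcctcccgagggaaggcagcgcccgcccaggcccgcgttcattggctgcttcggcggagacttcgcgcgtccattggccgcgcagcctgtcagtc
Satb1: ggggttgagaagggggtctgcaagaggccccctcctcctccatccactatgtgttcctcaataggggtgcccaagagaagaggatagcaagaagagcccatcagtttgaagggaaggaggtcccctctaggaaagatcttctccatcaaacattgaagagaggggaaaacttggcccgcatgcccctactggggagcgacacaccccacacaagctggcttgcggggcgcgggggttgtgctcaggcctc
Notch1: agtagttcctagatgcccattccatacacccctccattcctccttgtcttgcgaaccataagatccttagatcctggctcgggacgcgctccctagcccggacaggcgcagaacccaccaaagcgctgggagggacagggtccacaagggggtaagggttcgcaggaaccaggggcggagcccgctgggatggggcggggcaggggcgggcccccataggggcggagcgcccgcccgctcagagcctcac

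E boxes numbered 3 in the Dntt window, 2 in that of Lax1, 1 in that of Foxo1, and 0 in those of Satb1 and Notch1. Of the other genes Rag1 had 3, Pax5 and Tcf3 1 each, and Ebf1 and Ikzf1 0. An E box, which reads alike on both strands, was present in 66.2% of all 32851 RefSeq promoter windows of this length. The letters TGGGAA, a core that Ikaros binds, were searched on both strands and found once among the 10 windows, in that of Rag1, against 21.6% of all windows. The forkhead letters TGTTTAC were in none of the 10 windows and in 3.17% of all windows. Each motif was counted on its own, so overlapping matches count under each. For Pax5 and Rag1 the bases after the RefSeq start were not found in a GENCODE vM21 transcript of the gene. These are matches of letters and say nothing of binding.

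The B lineage regulators Ebf1 and Pax5 and the recombinase gene Rag1 were each higher past 1.5-fold in the cKO library over all kept cells, 3 of the 10 genes, against 5.79% of all 21255 genes measured. Satb1, Notch1 and Dntt, another 3 of 10, were lower, against 13.1%. Ebf1 stood at 45.7 CPM in cKO cells and 22.0 CPM in WT cells (log2 ratio 1.06, 1.01 to 1.10). Pax5 stood at 3.59 and 0.991 CPM (1.86, 1.66 to 2.06), and Rag1 at 0.571 and 0.267 CPM (1.09, 0.68 to 1.53). Pro-B/pre-B-like cells held 93.5% of the Pax5 UMIs of the cKO library and 67.7% of those of the WT library. The same cells held 79.3% and 17.1% of the Rag1 UMIs, while lymphoid progenitor-like cells held 13.1% of them in the cKO and 72.9% in the WT library. In sums over all cells, more cells of a type and more RNA per cell cannot be told apart. The part of the antibody removal of lineage-marked cells in the number of B lineage cells was not tested. With the pro-B/pre-B-like cells left out, a choice made after these values were seen, the log2 ratio of Pax5 was −0.46, that of Rag1 −0.89 and that of Ebf1 0.55, and none of the 3 was then higher past 1.5-fold.

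**Figure D1:**
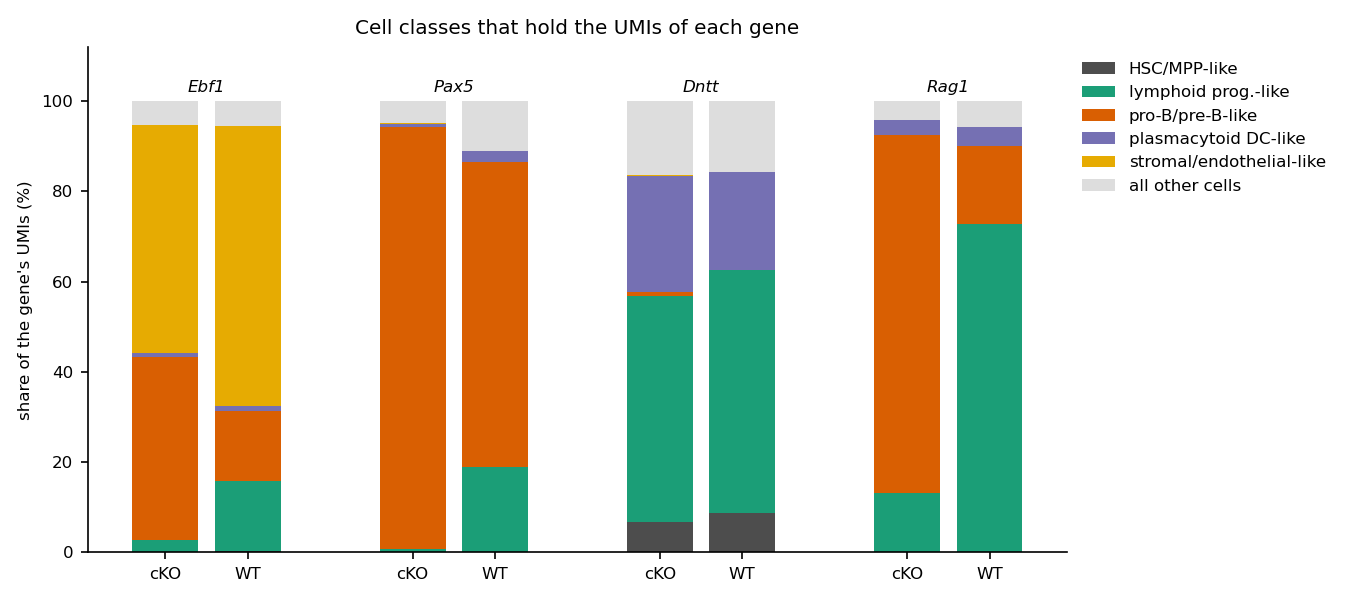
Share of each gene's UMIs (y axis, percent) by the cell class that holds them, with the cKO library left of the WT library for Ebf1, Pax5, Dntt and Rag1. Pax5 lies mostly in pro-B/pre-B-like cells of both libraries (93.5% in cKO, 67.7% in WT), pro-B/pre-B-like cells hold 79.3% of the Rag1 UMIs in cKO and 17.1% in WT, and stromal/endothelial-like cells hold 50.5% of cKO and 62.0% of WT Ebf1 UMIs.

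Ebf1 was not only a lymphoid gene in this marrow; it is also known from stromal and fat-forming cells. Stromal/endothelial-like cells, 372 in the cKO and 235 in the WT library, held 5854 of 11598 Ebf1 UMIs in the cKO library (50.5%) and 3574 of 5763 in the WT library (62.0%). Their level was 2308 CPM in cKO and 2007 CPM in WT cells, a log2 ratio of 0.20 (0.14 to 0.26). Before thinning, Ebf1 had a UMI in 245 of these 372 cKO and 139 of 235 WT cells. The class pools cells with stromal and endothelial markers, and the part of that mixture in its ratio and shares was not tested. In pro-B/pre-B-like cells the level was 7701 and 7712 CPM, and in lymphoid progenitor-like cells 336 and 307 CPM (0.13, −0.06 to 0.32). After every cell was thinned to 2000 UMIs, Ebf1 had a UMI in 74.4% of stromal/endothelial-like cKO cells (201 of 270) and 62.5% of WT cells (85 of 136), against 0.492% and 0.168% in erythroblast-like cells, which should lack it. Genes whose levels over 31 class-by-library values were most like Ebf1 were Gfra1 (Pearson r = 0.92), Fam189a1 (0.84) and Tnfrsf19 (0.83), ahead of Pax5 (0.68) and Rag1 (0.66); the 31 points share 2 libraries and their depth.

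Within the B lineage itself Ebf1 and Pax5 stood at similar levels in both libraries. Pro-B/pre-B-like cells stood at 1398 CPM of Pax5 in the cKO and 1520 CPM in the WT library, with 853 and 176 UMIs. With 13 WT cells, of which 3 held 65.3% of the Pax5 UMIs, no ratio was taken. Rag1 stood at 188 CPM (interval 156 to 226) in cKO and 104 CPM (53.5 to 181) in WT pro-B/pre-B-like cells, Foxo1 at 564 and 328 CPM, Ikzf1 at 1383 and 1002 CPM, and Tcf3 at 229 and 190 CPM. Thinned to 2000 UMIs, Pax5 had a UMI in 120 of 133 such cKO cells (90.2%) and 12 of 13 WT cells (92.3%), and Rag1 in 30.1% and 30.8%. Before thinning all 141 cKO and all 13 WT cells had an Ebf1 UMI, 136 and 13 had Pax5, and 53 and 5 had Rag1. Median depth in this class was 3634 UMIs in cKO and 5334 in WT cells.

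Dntt UMIs lay mainly in lymphoid progenitor-like cells. Its level was highest in lymphoid progenitor-like cells, at 1003 CPM in the cKO and 796 CPM in the WT library, and next in plasmacytoid dendritic-like cells, at 69.7 and 136 CPM. In pro-B/pre-B-like cells 16 UMIs were counted in the cKO library, in 2 of 141 cells with 14 of them in 1 cell, and 0 in the 13 WT cells, where the exact Poisson interval reaches up to 31.9 CPM. Dntt had a UMI in 41 of 49 cKO and 101 of 143 WT lymphoid progenitor-like cells. Each such cell with an Ebf1 UMI carried Dntt, 15 of 15 in the cKO and 25 of 25 in the WT library. The same held for Rag1, with 9 of 9 cKO and 17 of 17 WT cells, and for Pax5, with 4 of 4 and 4 of 4, few cells in a class where most carry Dntt. In pro-B/pre-B-like cells, by contrast, 2 of 141 Ebf1-carrying cKO cells and 0 of 13 WT cells had Dntt. These are counts of cells within 1 library each, at median depths of 18428 and 20226 UMIs in the lymphoid progenitor-like class.

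**Figure D2:**
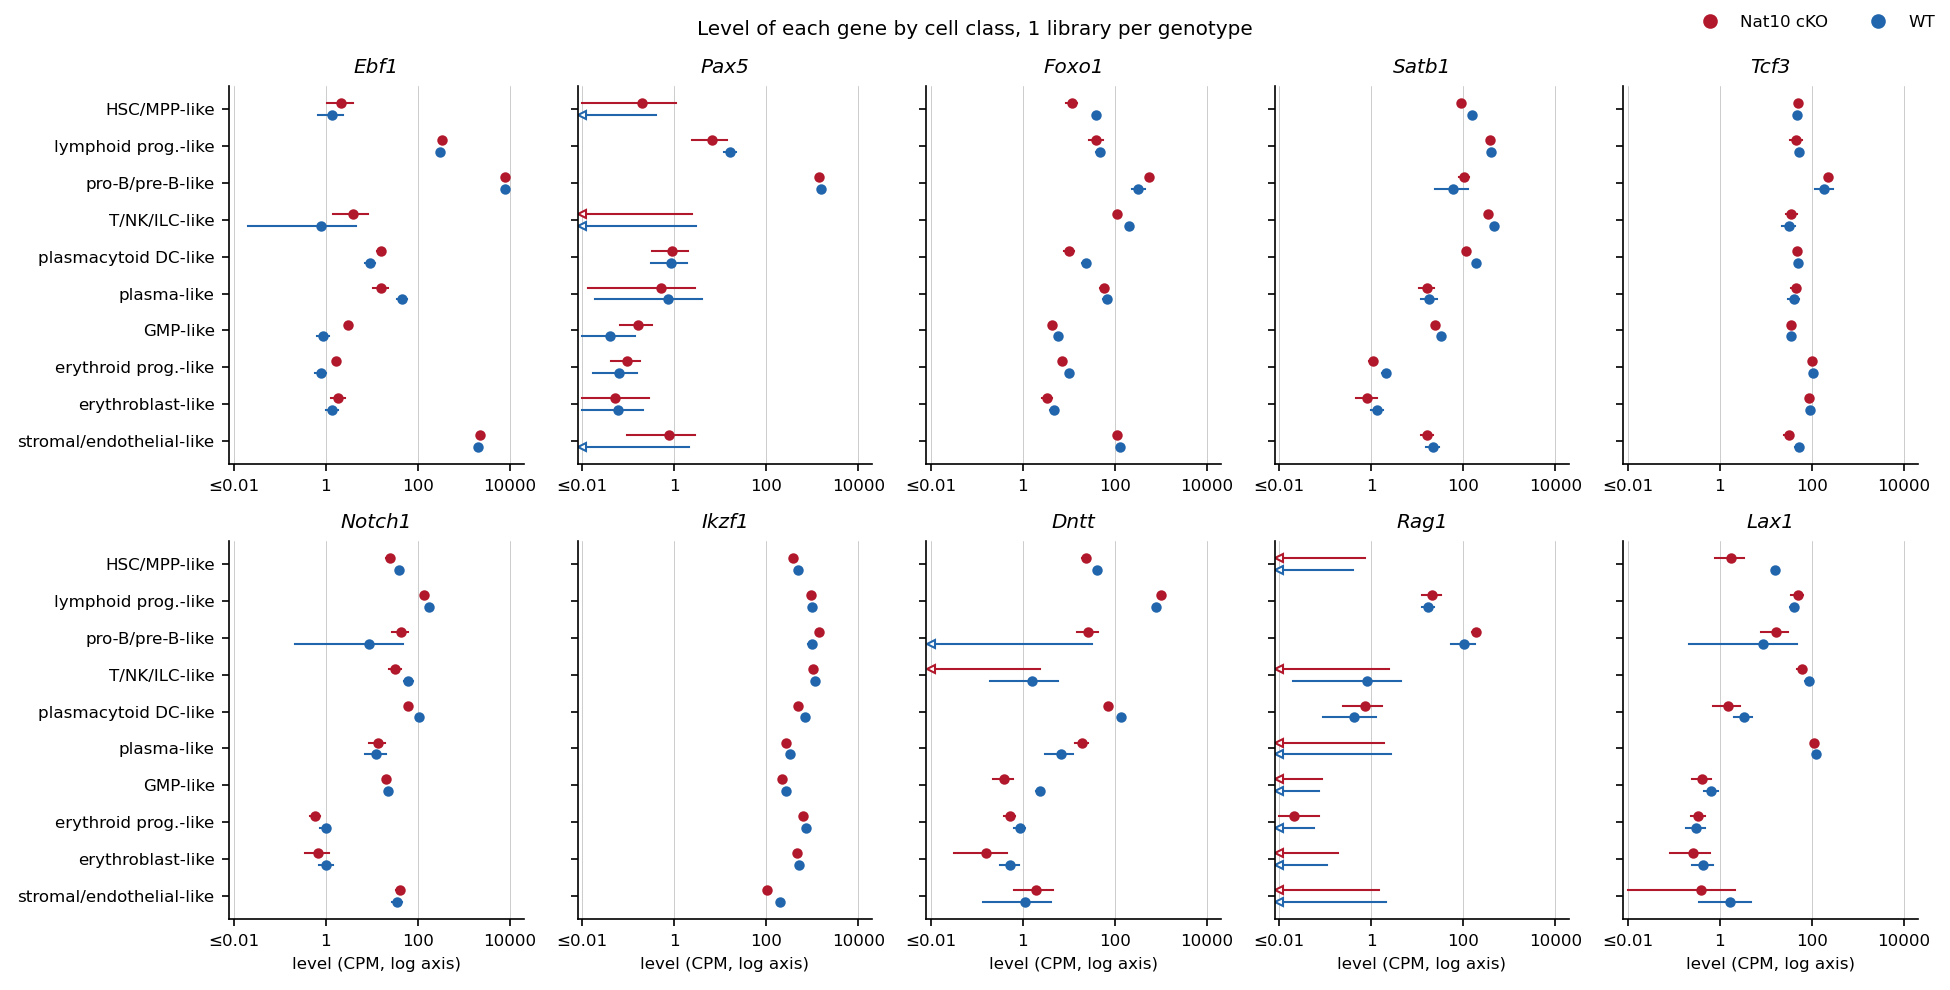
Level of each gene (x axis, CPM on a log axis) in 10 cell classes (rows), with the cKO library above the WT library; points are summed UMIs scaled to a total of 1000000, lines are exact 95% Poisson intervals, and open arrows mark a count of 0. Ebf1 peaks in pro-B/pre-B-like cells (7701 and 7712 CPM) and again in stromal/endothelial-like cells (2308 and 2007 CPM), Dntt in lymphoid progenitor-like cells (1003 and 796 CPM), and Ikzf1 and Tcf3 are spread over all 10 classes.

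HSC/MPP-like cells of the cKO library held less of 5 lymphoid genes. Foxo1, Satb1, Notch1, Dntt and Lax1 were lower past 1.5-fold, 5 of the 7 genes with enough UMIs, and 0 of 7 were higher. Over all 11444 genes measured in these cells 18.6% were lower past 1.5-fold and 5.78% higher, and the median log2 ratio was −0.80 over the 7 genes against −0.16 over all genes. Lax1 had 9 UMIs in 9 of 165 cKO cells and 145 UMIs in 87 of 390 WT cells. That gave 1.75 CPM in the cKO and 16.2 CPM in the WT library, a log2 ratio of −3.13 (−4.36 to −2.24). Foxo1, a forkhead factor needed at several steps of B cell development, had 60 and 343 UMIs, 11.7 CPM in cKO and 38.3 CPM in WT cells (−1.70, −2.13 to −1.31). Foxo1 was carried by 42 cKO and 155 WT cells, and the 3 highest WT cells held 7.58% of its WT UMIs and 11.7% of those of Lax1. The cKO side of the Lax1 ratio rests on 9 UMIs.

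The other 3 were nearer to their WT levels. Satb1 stood at 88.2 CPM in cKO and 157 CPM in WT HSC/MPP-like cells (log2 ratio −0.83, −0.99 to −0.68) and Notch1 at 24.9 and 38.4 CPM (−0.62, −0.93 to −0.32). Dntt stood at 24.0 and 41.9 CPM (−0.80, −1.11 to −0.51), from 20 cKO and 66 WT cells, the 3 highest holding 45.5% of the cKO and 26.1% of the WT UMIs. Ikzf1 stood at 389 and 486 CPM (−0.32, −0.40 to −0.24) and Tcf3 at 49.3 and 47.7 CPM (0.05, −0.18 to 0.27), neither past 1.5-fold. Ebf1, Pax5 and Rag1 had too few UMIs in this class to be counted, with 11 and 12 UMIs, 1 and 0, and 0 and 0 in the cKO and WT library.

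The HSC/MPP-like class joined 2 clusters that the libraries filled unevenly. Cluster 47 held 129 of the 165 cKO cells and 147 of the 390 WT cells, and cluster 6 held 36 and 243. The cell cycle gene Mki67 stood at 539 CPM in cKO and 682 CPM in WT cells of cluster 47, and at 197 and 123 CPM in cluster 6. Within cluster 47 the log2 ratio was −1.34 for Foxo1, −0.86 for Satb1, −0.54 for Notch1, −0.97 for Dntt and −2.68 for Lax1, the last from 4 and 32 UMIs. Within cluster 6 the values were −1.25, −0.84, −0.62, −0.01 and −1.90, in the same order of genes. The intervals of Foxo1, Satb1 and Lax1 lay below 0 in both clusters and that of Notch1 in cluster 47, while the interval of Dntt lay below 0 in cluster 47 and spanned 0 in cluster 6 (−0.64 to 0.54). The cKO level of Dntt in cluster 6 rested on 30 UMIs in 5 cells, and the 3 highest held 93.3% of them. With the 10 genes allowed among the variable genes of the clustering, 2 genes were lower past 1.5-fold in this class (Foxo1 at −1.51 and Lax1 at −2.60) and Dntt stood at 0.18.

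**Figure D3:**
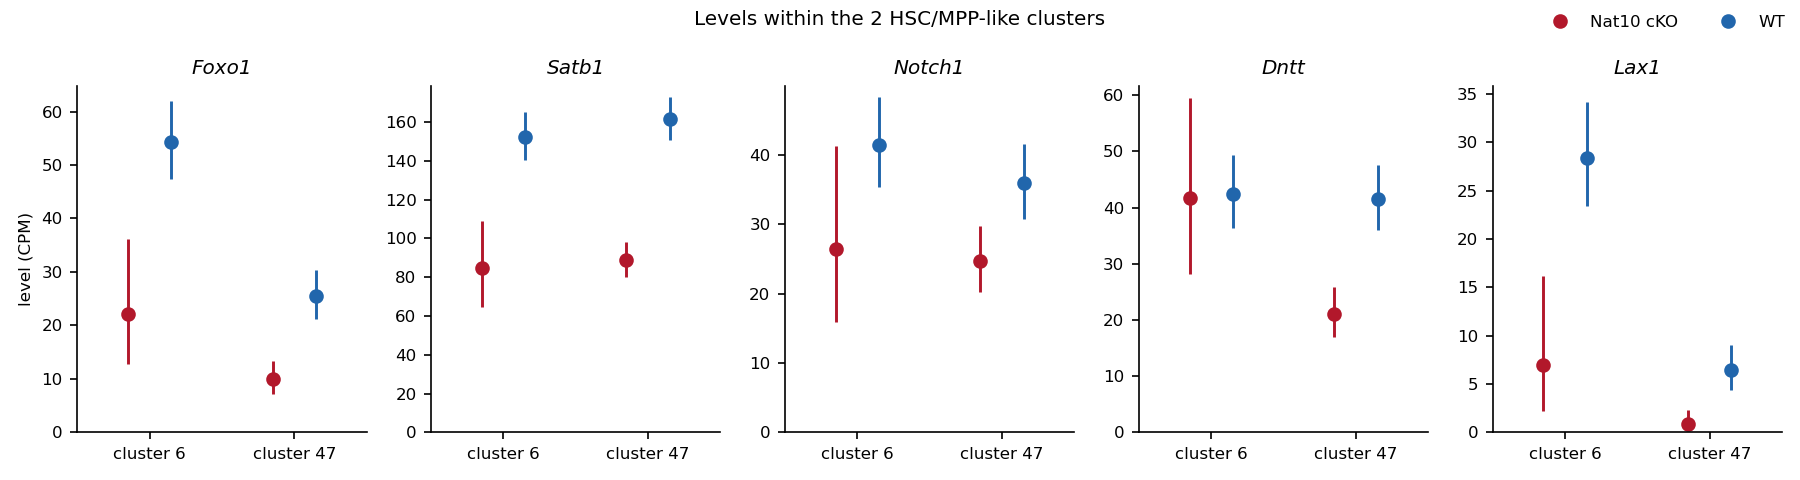
Level (y axis, CPM) of Foxo1, Satb1, Notch1, Dntt and Lax1 in the HSC/MPP-like clusters 6 and 47, with the cKO library left of the WT library; points are summed UMIs scaled to a total of 1000000 and lines are exact 95% Poisson intervals. Satb1 sits at 84.7 CPM in cKO and 152 CPM in WT cells of cluster 6 and at 88.8 and 162 CPM in cluster 47, while Dntt in cluster 6 is at 41.7 and 42.5 CPM. The cKO value of Dntt there comes from 5 cells.

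Depth and gene span moved with genotype in the same cells. Median depth was 31187 UMIs in cKO and 19484 in WT HSC/MPP-like cells. Over all genes measured there, the median log2 ratio was 0.13 for genes spanning under 10 kb, −0.06 for 10 to 30 kb, −0.27 for 30 to 100 kb, −0.43 for 100 to 300 kb and −0.66 for over 300 kb. Foxo1 (84.9 kb), Satb1 (97.1 kb), Notch1 (58.8 kb), Ikzf1 (87.9 kb) and Dntt (30.3 kb) are of the middle band, and Lax1 (11.0 kb) and Tcf3 (24.1 kb) of the 10 to 30 kb band. The part of depth and span in these ratios was not tested. With every cell thinned to 2000 UMIs, Foxo1 had a UMI in 1.82% of cKO cells (3 of 165) and 11.0% of WT cells (42 of 383), Ikzf1 in 44.2% and 60.3%, and Satb1 in 17.0% and 21.4%. Foxo1 in erythroblast-like cells, read as background, stood at 0.492% and 0.923%. Lax1 had a UMI in 1.21% of thinned cKO and 3.66% of thinned WT HSC/MPP-like cells, with intervals of 0.147 to 4.31% and 2.01 to 6.06% that overlap. Thinned to 4000 UMIs instead, Satb1 had a UMI in 27.4% of cKO and 34.5% of WT HSC/MPP-like cells. Its intervals, 20.8 to 34.9% and 29.7 to 39.6%, overlap as well. Those of Foxo1 at that depth, 1.73 to 8.60% and 10.6 to 17.8%, do not.

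**Figure D4:**
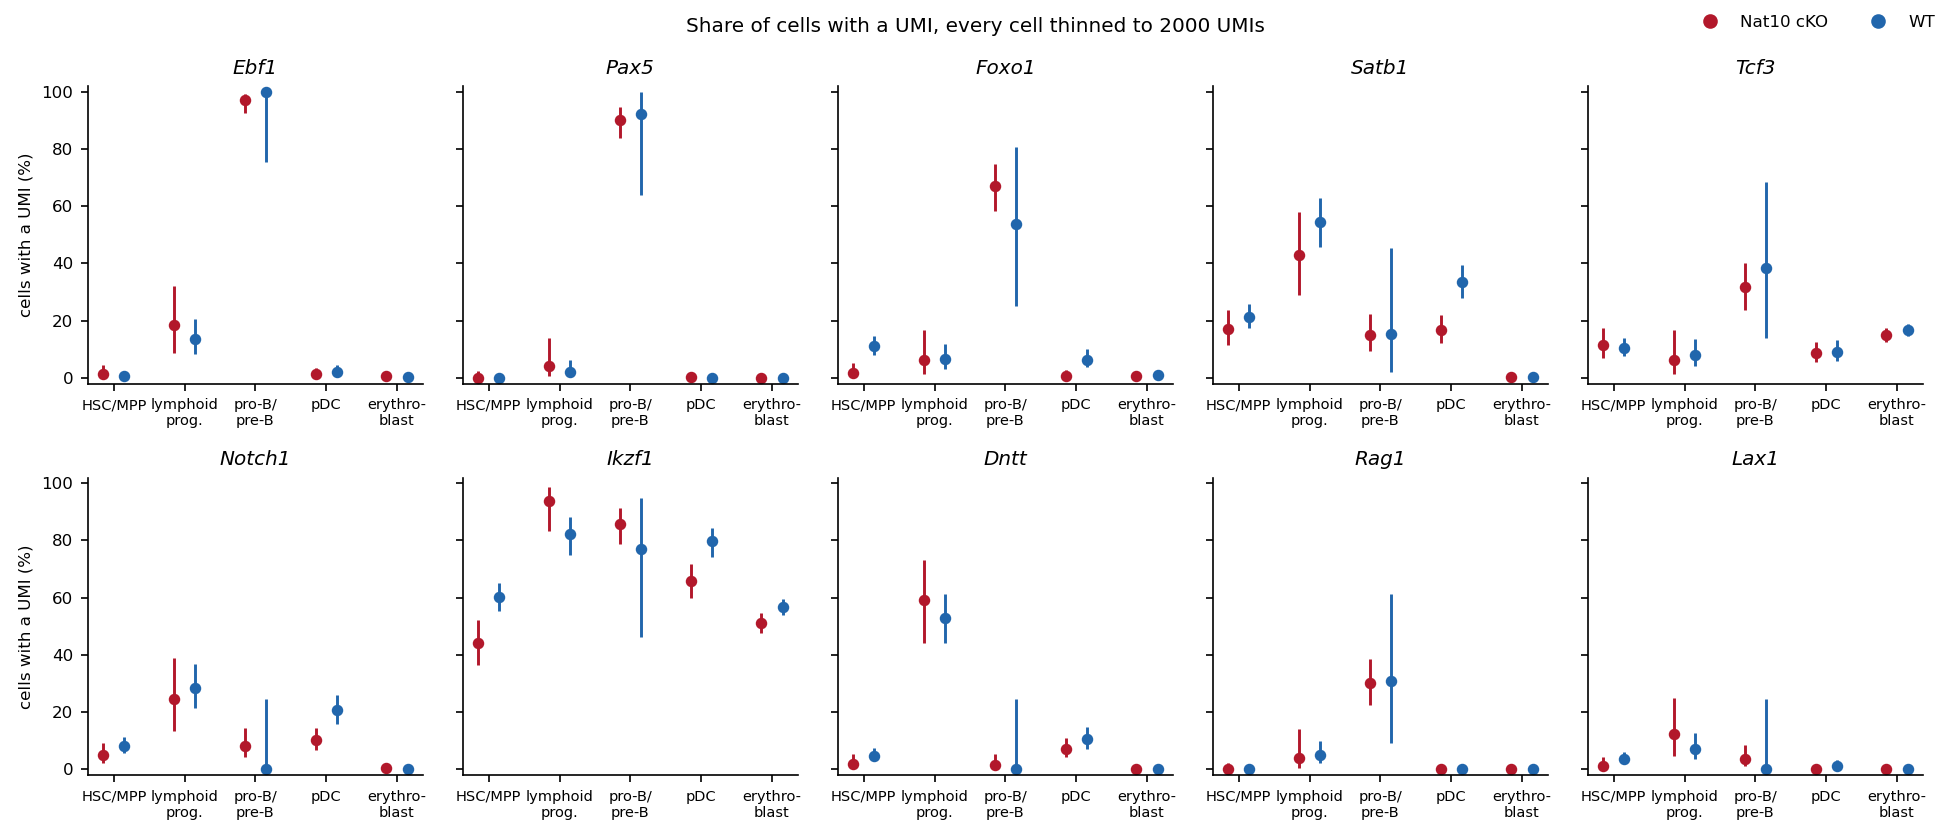
Share of cells with at least 1 UMI (y axis, percent) after thinning every cell to 2000 UMIs, in 5 cell classes with the cKO library left of the WT library; points are shares and lines exact 95% binomial intervals. In HSC/MPP-like cells Foxo1 is at 1.82% in cKO and 11.0% in WT and Ikzf1 at 44.2% and 60.3%, while in lymphoid progenitor-like cells the intervals of both genotypes overlap for all 10 genes.

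In lymphoid progenitor-like cells, as drawn in the main clustering, most of the genes lay near their WT levels. More of them were lower with the 10 genes among the variable genes or with a stricter filter, as given below. All 10 were measured. Pax5 was lower past 1.5-fold and the other 9 were within it, so 1 of 10 was lower and 0 higher, against 8.51% lower and 4.84% higher of 8311 genes. The median log2 ratio was −0.07 over the 10 genes and −0.04 over all genes. The Pax5 value, 6.56 CPM in cKO and 16.6 CPM in WT cells (−1.24, −2.85 to −0.11), rested on 6 UMIs in 4 cKO cells and 49 UMIs in 4 WT cells, 3 of which held 95.9% of the WT UMIs. Its share of cells before thinning was 4 of 49 and 4 of 143.

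Dntt was the one gene whose interval lay above 0 in this class, at 1003 CPM in cKO and 796 CPM in WT cells (log2 ratio 0.33, 0.22 to 0.44). Ikzf1 stood at 949 and 996 CPM (−0.07, −0.18 to 0.04), Satb1 at 382 and 403 CPM (−0.08, −0.26 to 0.09), and Notch1 at 140 and 174 CPM (−0.31, −0.60 to −0.03). Foxo1 stood at 39.4 and 46.8 CPM (−0.23, −0.82 to 0.29), Rag1 at 20.8 and 17.3 CPM (0.29, −0.58 to 1.05), Lax1 at 49.2 and 40.3 CPM (0.30, −0.24 to 0.79) and Tcf3 at 45.9 and 52.5 CPM (−0.18, −0.72 to 0.31). Ebf1 UMIs were concentrated, with 151 of 307 in 1 cKO cell and 208 of 905 in 1 WT cell.

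These values rested on how the class was drawn. With the 10 genes allowed among the variable genes, of which 5 then were, the class held a cluster of 82 cKO and 37 WT cells beside one of 29 and 69, and 9 of 10 genes were then lower past 1.5-fold, with Dntt at −1.65. With a stricter filter on barcodes 5 were lower and Dntt was at −0.48. Closer clustering, at a resolution of 2.5, gave 1 lower gene and a Dntt ratio of 0.18.

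**Figure D5:**
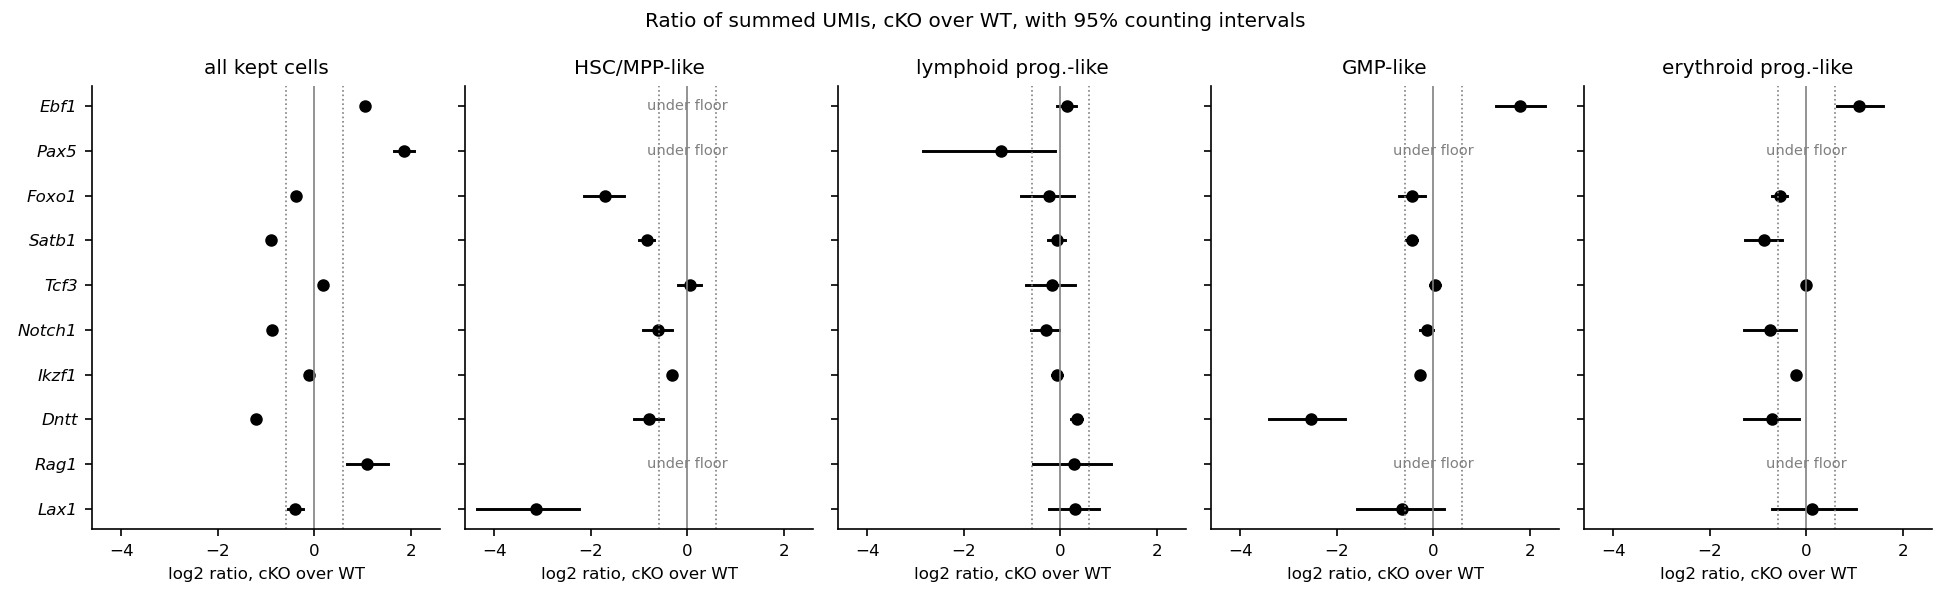
Log2 ratio of summed UMIs, cKO over WT (x axis), for the 10 genes (rows) in all kept cells and 4 classes (panels); lines are exact conditional 95% intervals for counting error, dotted lines mark 1.5-fold, and genes with under 50 UMIs have no point. In HSC/MPP-like cells 5 genes lie left of the lower dotted line, the lowest Lax1 at −3.13, and in lymphoid progenitor-like cells only Pax5 does, at −1.24.

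Plasmacytoid dendritic-like cells, which arise in part from lymphoid progenitors, had lower levels of Dntt, Satb1, Notch1 and Foxo1 in the cKO library. Lax1 had 10 UMIs in cKO and 23 in WT cells, too few to be counted. The share of all genes lower past 1.5-fold was not counted in this class, so whether these genes stand out from it was not tested. Dntt had 467 UMIs in 29 of 275 cKO cells and 944 UMIs in 62 of 274 WT cells, 69.7 against 136 CPM (log2 ratio −0.96, −1.13 to −0.80). Satb1 stood at 118 CPM in cKO and 190 CPM in WT cells (−0.69, −0.82 to −0.56), Notch1 at 60.0 and 104 CPM (−0.79, −0.97 to −0.62), Foxo1 at 10.3 and 23.3 CPM (−1.18, −1.61 to −0.77) and Ikzf1 at 497 and 683 CPM (−0.46, −0.52 to −0.39). Tcf3 stood at 48.2 and 50.7 CPM (−0.07, −0.30 to 0.15). Median depths were alike, 25706 UMIs per cKO and 24956 per WT cell. Thinned shares were 16.7% of cKO and 33.5% of WT cells for Satb1 and 10.1% and 20.6% for Notch1, against 0.369% and 0.252% for Satb1 and 0.369% and 0.168% for Notch1 in erythroblast-like cells.

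That class held 4 clusters. Satb1 was lower in cKO cells of each of the 3 clusters with enough cells, at log2 ratios of −0.66 in cluster 5, −0.82 in cluster 41 and −0.86 in cluster 44, and Notch1 likewise at −0.56, −1.33 and −0.98. In cluster 5, with 131 cKO and 105 WT cells, Dntt stood at 123 and 245 CPM (−0.99, −1.16 to −0.83). That cluster held 463 of the 467 cKO and 801 of the 944 WT Dntt UMIs of the class. Its leading genes held Flt3, a lymphoid progenitor marker, beside Cox6a2. In cluster 41, led by Siglech and Cd300c, 3 Dntt UMIs were counted in 62 cKO cells and 113 in 47 WT cells, though 3 WT cells held 81.4% of them. In cluster 44, 0 were counted in 61 cKO cells and 21 in 61 WT cells, 8 of which carried them.

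T, NK and innate lymphoid-like cells, 324 in the cKO and 197 in the WT library, carried Satb1, Foxo1, Notch1 and Lax1. Notch1 was not highest there, as lymphoid progenitor-like cells stood at 140 CPM in the cKO and 174 CPM in the WT library. The share of all genes lower past 1.5-fold was not counted in this class either. Satb1 stood at 343 CPM in cKO and 470 CPM in WT cells (log2 ratio −0.46, −0.63 to −0.28), Foxo1 at 115 and 201 CPM (−0.80, −1.09 to −0.52), Notch1 at 32.4 and 62.8 CPM (−0.95, −1.50 to −0.42) and Lax1 at 60.3 and 87.8 CPM (−0.54, −0.96 to −0.13). Ebf1 had 6 and 1 UMIs, Rag1 0 and 1, Dntt 0 and 2, and Pax5 0 in both. The class is a mixture that the libraries filled unevenly: a cluster whose leading genes include Gata3, Il2ra and the lymphoid progenitor marker Ccr9 held 157 cKO and 33 WT cells, and one with the T cell genes Cd3d and Trac 48 and 83, and the part of that mixture in the ratios was not tested. Lax1 was highest in plasma-like cells, at 114 CPM in cKO and 122 CPM in WT cells (−0.11, −0.41 to 0.19). In the WT library the interval of that level meets that of T, NK and innate lymphoid-like cells, so the order of the 2 classes is not settled there.

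The 3 genes that were lower over all kept cells are known from early lymphoid priming or the T cell side. UMIs of Satb1 and Notch1 were not confined to such cells. GMP-like cells, described below, held 31.7% of the cKO and 21.4% of the WT Notch1 UMIs, and monocyte-like cells 16.4% and 26.7%. Lymphoid progenitor-like cells held 4.64% and 9.81% of them, and T, NK and innate lymphoid-like cells 1.81% and 1.49%. Of the Satb1 UMIs monocyte-like cells held 9.21% and 13.4%, and lymphoid progenitor-like cells 6.37% and 11.3%. Monocyte-like cells were 4.72% of cKO and 10.6% of WT cells. Over all kept cells Satb1 stood at 21.6 CPM in cKO and 39.97 CPM in WT cells (log2 ratio −0.89, −0.94 to −0.84), Notch1 at 10.9 and 19.9 CPM (−0.88, −0.94 to −0.81) and Dntt at 7.20 and 16.6 CPM (−1.20, −1.28 to −1.12). Lymphoid progenitor-like cells were 0.458% of cKO and 1.20% of WT cells and held 50.2% and 54.0% of the Dntt UMIs. With the cKO cells reweighted to the class shares of the WT library the ratios were −0.50 for Satb1, −0.46 for Notch1 and −0.27 for Dntt. Those of Ebf1, Pax5 and Rag1 were −0.05, −0.83 and 0.07. The Pax5 value rests on few cells, as 3 WT cells held 50.4% of its 260 WT UMIs. So 1 gene, Pax5, was lower past 1.5-fold and 0 higher. Ikzf1, at 501 and 539 CPM (−0.10), Tcf3, at 75.7 and 66.9 CPM (0.18), Foxo1, at 12.7 and 16.6 CPM (−0.38), and Lax1, at 2.33 and 3.06 CPM (−0.39), were not past it; the last 2 were at 0.17 and 0.10 when every cell weighed alike.

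Cells like progenitors of granulocytes and monocytes (GMP-like) and erythroid progenitor-like cells belong to other lineages, and most of these genes were low there. In GMP-like cells, 1315 cKO and 1441 WT, Dntt and Lax1 were lower past 1.5-fold and Ebf1 higher, 2 and 1 of the 8 genes measured, against 9.21% and 2.59% of all genes. Dntt stood at 0.391 CPM in cKO and 2.34 CPM in WT cells (log2 ratio −2.54, −3.41 to −1.84), from 17 UMIs in 17 cKO cells and 118 UMIs in 55 WT cells. Ebf1 stood at 3.11 and 0.893 CPM (1.79, 1.30 to 2.32), but 1 cKO cell held 59 of the 135 UMIs. In erythroid progenitor-like cells Satb1, Notch1 and Dntt were lower and Ebf1 higher, 3 and 1 of 8, against 6.24% and 2.36% of all genes. All 4 were near the bottom of their range there, Satb1 at 1.12 and 2.06 CPM, Notch1 at 0.589 and 0.992 CPM, Dntt at 0.527 and 0.868 CPM and Ebf1 at 1.66 and 0.775 CPM. Ebf1 in erythroblast-like cells, read as background, stood at 1.87 CPM in cKO and 1.39 CPM in WT cells. Satb1 stood there at 0.832 and 1.33 CPM, Notch1 at 0.676 and 1.03 CPM and Dntt at 0.156 and 0.532 CPM. The background of Satb1, Notch1 and Dntt was thus also lower in the cKO library. Its part in the erythroid progenitor-like ratios was not tested. With every cell weighing alike, Lax1 stood at 0.46 in GMP-like and Dntt at 0.32 in erythroid progenitor-like cells.

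Tcf3 and Ikzf1 were not restricted to lymphoid cells. Tcf3 stood at 103.1 CPM in cKO and 104 CPM in WT erythroid progenitor-like cells (log2 ratio −0.02, −0.06 to 0.03), above the 45.9 and 52.5 CPM of lymphoid progenitor-like cells. Thinned, it had a UMI in 14.9% of cKO and 16.7% of WT erythroblast-like cells and in 6.12% and 7.86% of lymphoid progenitor-like cells. Ikzf1 stood at 617 and 717 CPM in erythroid progenitor-like cells (−0.22, −0.24 to −0.20) and had log2 ratios below 0 in each of the 5 groups of cells in which genes were counted, as did the median over all genes (−0.10 over all kept cells for both), and it stood at 0.09 in HSC/MPP-like cluster 6. Genes most like Tcf3 over the 31 class-by-library values were Bcl7a (r = 0.90), Smarca4 (0.83) and Chchd10 (0.83). Those most like Ikzf1 were Mir142hg (0.80), Ubald2 (0.79) and Tle4 (0.78), those most like Satb1 C230085N15Rik (0.95), 5830444F18Rik (0.94) and Tbc1d10c (0.93), and those most like Notch1 Rassf2 (0.92), Rcsd1 (0.92) and Rnf13 (0.91). Rag1 was most like Pax5 (0.94) and Rag2 (0.91), Pax5 also like Niban3 (0.92) and P2rx3 (0.90), Lax1 like Gimap7 (0.92), Cd28 (0.89) and Gm28053 (0.89), and Foxo1 like Phxr4 (0.91), Fbxo32 (0.91) and Gm38034 (0.90). Satb1 and Notch1 had an r of 0.90 with each other.

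Wider lists of the same pathways, given as counts beside all genes, held more lower than higher genes in HSC/MPP-like cells of the cKO library. Of 17 measured early lymphoid priming genes 8 were lower past 1.5-fold and 0 higher, with a median log2 ratio of −0.52; Mn1, a transcriptional coregulator, had 5 and 57 UMIs in cKO and WT cells (−2.58) and Lsp1 233 and 740 (−0.86), while Cd52 had 542 and 772 (0.29). Of 17 FOXO pathway genes 8 were lower and 0 higher, with a median of −0.53. Among them Klf2, a FOXO target that controls lymphocyte migration, stood at 16.4 CPM in cKO and 71.0 CPM in WT cells (−2.11, and −1.79 over all kept cells), and S1pr1, the receptor that lets lymphocytes leave tissue, at 4.87 and 14.5 CPM (−1.55). Of 19 Notch pathway genes 6 were lower and 0 higher (median −0.39): the target gene Hes1 had 8 and 92 UMIs (−2.64), and the coactivator gene Maml3 stood at 507 and 992 CPM (−0.97). Of 9 genes of the E protein and Id network 3 were lower and 1 higher (median −0.51), with Id3, an inhibitor of E proteins, at 6 and 60 UMIs (−2.41), Id2 at 13 and 45 (−0.95) and Id1 at 92 and 104 (0.63). All these fall in cells where 18.6% of all genes were lower. The lists were read over the HSC/MPP-like class as a whole and not within its clusters, which the libraries filled unevenly. The part of that cluster mix, of depth and of gene span in these counts and ratios was not tested.

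The other lists are read against the same 18.6% lower and 5.78% higher of all genes in HSC/MPP-like cells, and several lay near those shares. Of 8 T cell specification genes 2 were lower, with Ets1 at 15 and 121 UMIs in cKO and WT cells (−2.17) and Cd247 at 13 and 64 (−1.45). Of 5 measured B lineage genes 2 were lower (Btg2 −0.95, Bach2 −0.72). Of 11 genes of V(D)J recombination and end joining 3 were lower, among them Xrcc4 (−0.84) and Xrcc5 (−0.73), with a median of −0.02. Of 9 antigen receptor adaptors 3 were lower, among them Nfam1 (−0.93) and Gab2 (−0.66), with a median of −0.22. Of 8 genes of the Ikaros family and its partners 0 were past 1.5-fold in either direction, with Ikzf2 at −0.44. None of these 5 lists had a gene higher past 1.5-fold. They too were read over the class as a whole, and the part of its cluster mix, of depth and of gene span was not tested.

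In lymphoid progenitor-like cells, where 8.51% of all genes were lower and 4.84% higher, no list had a median beyond 0.22 in size; the priming list shares Flt3, Il7r and other genes with the markers that named the class. Early lymphoid priming genes stood at 2 lower and 0 higher of 18 (median −0.08), the FOXO pathway at 3 and 3 of 17 (0.00), the Notch pathway at 1 and 0 of 16 (−0.21) and the E protein and Id network at 1 and 0 of 7 (−0.02). B lineage genes stood at 1 lower and 1 higher of 10 (−0.08): Blnk, the adaptor downstream of the pre-B cell receptor, stood at 98.4 CPM in cKO and 271 CPM in WT cells (−1.45). Recombination and end joining genes stood at 0 lower and 3 higher of 12 (0.22), among them Paxx (0.67) and Rag2, which is a marker the class was named by, at 25 and 32 UMIs. Klf2 was lower there too, at 38.3 and 93.9 CPM (−1.28), and Txnip, another FOXO target, higher at 67.8 and 34.6 CPM (0.98). T cell specification genes stood at 2 lower and 0 higher of 5 (0.05), Ikaros family genes at 0 and 0 of 8 (−0.14) and antigen receptor adaptors at 2 and 1 of 10 (0.09).

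Over all kept cells 13.1% of all genes were lower and 5.79% higher, and several lists lay near those shares. Of 24 B lineage genes 7 were higher and 2 lower, with Vpreb3 at 910 UMIs in the cKO and 172 in the WT library (2.45) and Cd22 at 121 and 301 (−1.26). Of 20 early lymphoid priming genes 9 were lower and 3 higher, with Mn1 at −1.39, Lsp1 at −1.13 and the cytokine receptor gene Il7r at 15.2 CPM in cKO and 7.59 CPM in WT cells. FOXO pathway genes stood at 5 lower and 1 higher of 20, Notch pathway genes at 3 and 3 of 26, antigen receptor adaptors at 4 and 1 of 13 and T cell specification genes at 1 and 1 of 18. The E protein and Id network, the Ikaros family and the recombination genes had 0 genes past 1.5-fold in either direction.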

How the data were processed

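UMI counts per gene and barcode were taken as deposited: per the submitters' processing notes the authors used Cell Ranger 7.1.0 and the mouse build mm39. The annotation, the treatment of intronic reads and the calling of cells are not given in the sources used here. Doublets were called per library with Scrublet in scanpy 1.11.5 (expected 8%): 547 cKO barcodes (4.87%) and 594 WT barcodes (4.74%) were removed. Both libraries were clustered together: 2000 variable genes without the 10 described genes, 30 principal components, 15 neighbours and Leiden at resolution 1.5 (igraph 0.11.9, Python 3.11.15). Clusters of at least 200 cells with at least 4 detected lymphoid progenitor markers were split once at resolution 0.5; this step was decided on after looking at the clusters. A cluster took the class with most markers among its 10 leading genes and needed 3 detected markers; 59 clusters gave 17 classes and 17 clusters stayed unnamed (2566 cKO and 3496 WT cells). Ratios were taken with 0.5 added to each sum, for classes of 30 or more cells per library. Intervals are exact Poisson, binomial or conditional binomial (scipy 1.17.1). Ratios and intervals were also run on simulated Poisson counts, the model that the intervals assume. That run cannot show how they fare where a few cells hold most UMIs of a gene. Genes named beside the 10 are Nat10, the 2 highest and 2 lowest of each list in 3 groups of cells, and the 3 genes of at least 200 UMIs most like each gene by r of log2(CPM + 1); genes read within clusters to describe them were chosen after seeing the data. IDs without a symbol are not named. The 10 genes and all lists were chosen with earlier results of these data known. Spans are from GENCODE vM21 (91.8% of IDs matched) and promoters from RefSeq, in which all 10 symbols were listed; the bases after the start were found in a GENCODE transcript for 8 of the 10.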

Additional observations from a re-analysis of the deposited data

Results flagged for a closer look

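Dntt pointed in opposite directions in different classes, with intervals on either side of 0. Its log2 ratio was 0.33 in lymphoid progenitor-like cells, against −0.80 in HSC/MPP-like, −2.54 in GMP-like and −0.72 in erythroid progenitor-like cells. These directions depend on the processing. With the 10 genes among the variable genes of the clustering the ratio was −1.65 in lymphoid progenitor-like and 0.18 in HSC/MPP-like cells. It was −0.48 in lymphoid progenitor-like cells under the stricter filter, and 0.32 in erythroid progenitor-like cells with every cell weighing alike. With 1 library per genotype the difference between these classes was not tested. Levels were 1003 CPM in cKO and 796 CPM in WT lymphoid progenitor-like cells, against 0.391 and 2.34 CPM in GMP-like and 0.527 and 0.868 CPM in erythroid progenitor-like cells. Among WT GMP-like cells the 3 highest held 51.7% of the Dntt UMIs.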

How the results depend on the processing

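No paired analysis was possible because each genotype has 1 library. Of the counts of genes past 1.5-fold and shares under all alternatives, 73 values stayed within the allowed range and 17 moved; among single ratios 297 stayed, 91 moved and 7 changed sign. The cause of each change was not tested. Over all kept cells, setting the cKO class mix to that of WT left 1 lower and 0 higher gene, with Ebf1 at −0.053 and Pax5 at −0.83. In the WT library 3 cells held 50.4% of the Pax5 UMIs. Leaving out pro-B/pre-B-like cells left 0 higher, with Pax5 at −0.46 and Rag1 at −0.89. In HSC/MPP-like cells the count of lower genes was 3 in cluster 47 alone, 4 under TMM scaling, doublets kept, the stricter filter or every cell weighing alike, and 2 with the 10 genes among the variable genes, where Dntt was at 0.18; without a floor on UMIs 2 genes were higher. In lymphoid progenitor-like cells 9 were lower with the 10 genes among the variable genes and 5 under the stricter filter, and 2 were higher with every cell weighing alike. In GMP-like cells 1 was lower under TMM scaling, every cell weighing alike (Lax1 at 0.46), doublets kept or the stricter filter, and 2 were higher with no floor. In erythroid progenitor-like cells, every cell weighing alike gave 1 lower and 2 higher, with Dntt at 0.32, and no floor gave 2 higher. Leaving out shared barcodes moved no count. One library per genotype and 13 WT pro-B/pre-B-like cells limit what depth can show.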
